A study of Homo sapiens with 10 samples.

Results

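The 4 libraries described here are the PHF10 knockdown replicates 1 to 4, out of 10 libraries in the series. They carry the same labels apart from their number. Replicates 1 and 4 differed from replicates 2 and 3 in many genes, and this grouping into 2 pairs was chosen from the expression values themselves. It cuts across a second grouping, also taken from the values, in which replicates 1 and 2 have high levels of type I interferon genes and replicates 3 and 4 low levels. Each gene was therefore described by 2 differences, replicate 1 minus replicate 2 within the interferon-high part and replicate 4 minus replicate 3 within the interferon-low part. These differences are given without any test, because the pairs were picked for being different. The labels give no batch, date, plate or passage, so the pairs cannot be tied to anything in the experiment.

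All cells were A375, an established human melanoma line driven by mutant BRAF, transfected with siRNA by a lipid reagent and harvested after 72 h. Experiment 1 holds the 4 PHF10 knockdown libraries and 2 controls, and experiment 2 holds 2 libraries labelled MYC knockdown and 2 controls of its own. The controls received a control siRNA by the protocol, but their siRNA field reads no treatment. Poly(A) RNA was sequenced in single reads of 100 nt. Whether replicates are separate cultures is not labelled, and the p-values cover the spread among these libraries alone. In whole populations of cells, fewer cells of a kind and less RNA per cell cannot be told apart.

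PHF10 is a subunit of PBAF, one of the SWI/SNF complexes that use ATP to move nucleosomes and so alter access to promoters and enhancers. STC1 encodes stanniocalcin 1, a secreted glycoprotein first known as a calcium-regulating hormone in fish and induced by many stresses in human cells. MITF is the master transcription factor of the melanocyte lineage, and melanomas vary widely in its level.

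The 4 knockdown libraries held 21, 23.2, 27 and 23.4 M gene reads in the order of their numbers. Mitochondrial genes took 4.60%, 5.79%, 6.94% and 6.72% of them, and reads outside any gene 13.8%, 12.3%, 10.1% and 10.6% of all reads. None of these 3 measures put both replicates 1 and 4 on one side of both 2 and 3. Within each part, however, replicates 1 and 4 had fewer gene reads, a lower mitochondrial share and more reads outside genes than their partners 2 and 3, and their part in the gene differences between the pairs was not tested. Mean log2 CPM (counts scaled to library size) of 45 type I interferon genes was 7.53 and 7.22 in replicates 1 and 2 and 3.60 and 4.82 in replicates 3 and 4. It was 7.87 in control 1 and 4.68 in control 2 of experiment 1, so the knockdown libraries are set against control 1 in the high part and control 2 in the low part. Of 8 melanocyte markers, SOX10 stood at 528 to 676 CPM in the 4 libraries, while TYR, TYRP1 and DCT stayed under 1 CPM and MLANA had 1 read in all.

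The knockdown target itself did not follow the pairs. PHF10 stood at 16.1 and 15.7 CPM in replicates 1 and 4 and at 18.0 and 15.0 CPM in replicates 2 and 3, against 40.1 and 36.6 CPM in the controls of experiment 1. All 4 knockdown libraries lay below both controls, and the pair differences were -0.16 and 0.06 on the log2 scale. PHF10 fell by 1.24 ± 0.10 (log2, SE) in the knockdown against its controls, with an adjusted p of 0.00105 (edgeR's quasi-likelihood test, Benjamini-Hochberg). In experiment 2 PHF10 lay between 119 and 125 CPM in all libraries.

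STC1 was higher in replicates 1 and 4 in both parts. It stood at 407 CPM in replicate 1 and 250 CPM in replicate 4, against 115 CPM in replicate 2 and 88.9 CPM in replicate 3. The controls held 38.1 and 23.9 CPM in experiment 1 and 59.8 and 55.8 CPM in experiment 2, and the pair labelled MYC knockdown held 197 and 206 CPM. The order from high to low was therefore replicate 1, replicate 4, the libraries labelled MYC knockdown, replicate 2, replicate 3, the controls of experiment 2 and the controls of experiment 1, with no overlap between the pairs. The fold was 3.55 in the interferon-high part and 2.81 in the low part. Both pairs lay above their matched control, replicates 1 and 4 by 3.42 and 3.39 and replicates 2 and 3 by 1.6 and 1.9 on the log2 scale. Over all 4 libraries STC1 rose by 2.80 ± 0.61 (log2, SE; edgeR adjusted p = 0.0288), a call lost when experiment 1 was fitted alone (adjusted p = 0.119), without knockdown replicate 4 (0.0548) and without control 1 or control 2 (0.122 and 0.222). In the libraries labelled MYC knockdown the difference was 1.80 with an adjusted p of 0.249, and 1.81 with an adjusted p of 9.4e-35 when experiment 2 was fitted alone.

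MITF showed a smaller difference of the same direction. Its level was 46.7 and 38.2 CPM in replicates 1 and 4, and 21.9 and 20.4 CPM in replicates 2 and 3. The controls of experiment 1 held 55.3 and 38.5 CPM, the controls of experiment 2 21.3 and 22.5 CPM, and the libraries labelled MYC knockdown 18.9 and 16.8 CPM. Replicates 1 and 4 were thus close to their matched controls (-0.24 and -0.01, log2), and replicates 2 and 3 lay below them (-1.33 and -0.91). The pairs did not overlap, and the differences of 1.09 and 0.90 left MITF just outside the 2-fold mark. Neither the PHF10 comparison (-0.56 ± 0.31, log2, SE; edgeR adjusted p = 0.323) nor the labelled MYC comparison (-0.30, adjusted p = 0.809) passed the threshold for MITF in the fit over all libraries. Without a filter on low counts the PHF10 difference was -0.57 with an edgeR adjusted p of 0.0194. With experiment 2 fitted alone the labelled MYC difference was -0.28 with an edgeR adjusted p of 0.0028.

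Across the transcriptome, 13327 genes had a mean of at least 2 CPM over the 4 libraries. A gene was counted when both differences had the same sign and each reached 2-fold. That held for 316 genes higher in replicates 1 and 4 (2.37% of the 13327) and for 165 genes higher in replicates 2 and 3 (1.24%), 481 in all (3.61%). No gene had 2-fold differences of opposite sign. At 1.5-fold the counts were 931 (6.99%) and 676 (5.07%), and 10900 genes (81.8%) had the same sign at any size, 5374 (40.3%) toward replicates 1 and 4 and 5526 (41.5%) toward 2 and 3. A gene can pass the mean of 2 CPM through its higher pair alone, and at a mean of 10 CPM the counts were 186 and 77.

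The 2 differences come from separate libraries, and across the 13327 genes they had a Pearson correlation of 0.848 and a Spearman correlation of 0.816, given as a description since the pairing was chosen from them and genes are not independent replicates. Among counted genes the difference in the low part was 0.834 times that in the high part at the median. The SD over genes of the mean pair difference was 0.525 on the log2 scale, compared with 0.430 for the interferon-high minus interferon-low difference of the same 4 libraries. The first principal component of the 4 libraries held 59.3% of the variance, with scores of 42.0 and 17.3 for replicates 1 and 4 and of -25.0 and -34.3 for replicates 2 and 3. The second component held 36.3% and separated replicates 1 and 2 from 3 and 4. Library correlations of log2 CPM were 0.980 for replicates 1 and 4 and 0.982 for 2 and 3, and 0.961 to 0.981 for the other pairings.

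**Figure D1:**
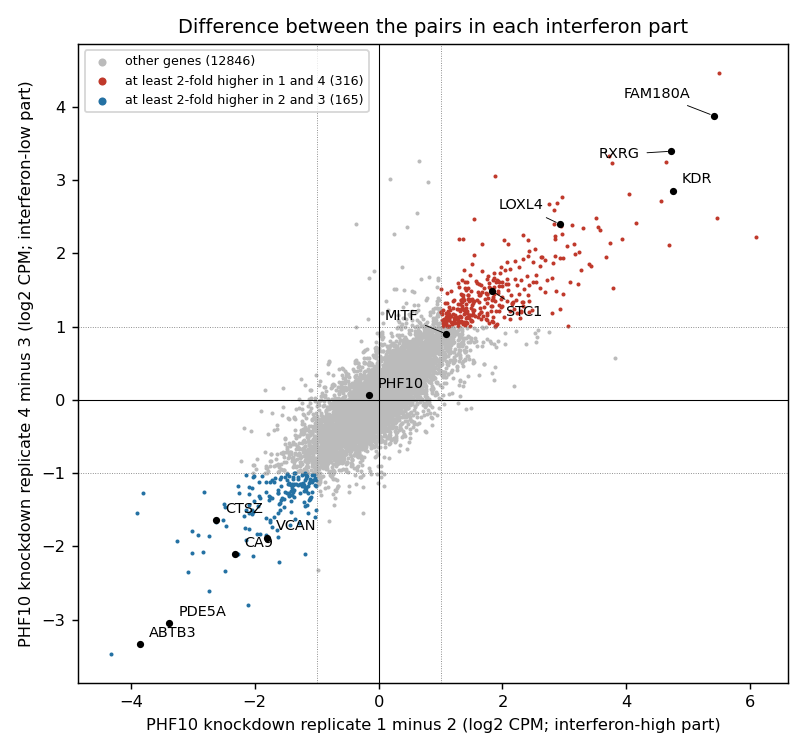
Each point is a gene with a mean of at least 2 CPM: the x axis is replicate 1 minus 2 and the y axis replicate 4 minus 3, both in log2 CPM, and dotted lines mark 2-fold. The 316 red and 165 blue genes lie in opposite corners, the other corners beyond the 2-fold lines are empty, and PHF10 lies near the origin.

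Just inside the 2-fold mark lay SH3D19 (1.11 and 1) on the side of replicates 1 and 4, and MAPK4 (-1 and -1.51) and MAN2B2 (-1.36 and -1) on the other. Just outside lay TXNIP (1.10 and 0.996), STK3 (0.997 and 1.23), HS6ST3 (-1.83 and -0.999) and LYPD3 (-1.47 and -1).

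Among the leading genes on the side of replicates 1 and 4 were receptors. RXRG, the gamma retinoid X receptor, stood at 56.5 and 48.6 CPM in replicates 1 and 4 and at 2.07 and 4.56 CPM in replicates 2 and 3, with 30.0 and 41.0 CPM in the controls of experiment 1. KDR, the receptor VEGFR2 for vascular endothelial growth factor, stood at 199 and 105 CPM against 7.30 and 14.5 CPM, with controls at 57.7 and 44.8 CPM. The pairs did not overlap in either gene, but they lay differently to the controls. For RXRG the replicates 2 and 3 were far below the controls, and for KDR the pairs stood on opposite sides of them.

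KDR is also a marker of endothelial cells. The summed level of 12 endothelial markers was 252 and 181 CPM in replicates 1 and 4 and 89.2 and 92.8 CPM in 2 and 3. KDR alone made up 199 and 105 CPM of these sums in replicates 1 and 4 and 7.30 and 14.5 CPM in 2 and 3. Without KDR the summed level was lower in replicates 1 and 4 than in their partners. The defining markers PECAM1 and CDH5 stayed under 1 CPM in all 4. Of the other endothelial members, TEK, TIE1 and VWF had means under 2 CPM and were therefore not counted, but they too were over 2-fold higher in replicates 1 and 4, by 2.53 and 1.97, 3.11 and 1.28, and 1.25 and 1.29 on the log2 scale. VWF reached 3.17 CPM and TEK 1.52 CPM at most, and PECAM1 had the same sign (2.44 and 0.70). FLT1, EGFL7 and ESAM, each at a mean of 2 CPM or more, did not follow KDR. The part of endothelial-type expression in the pair differences was not tested. Of 15 immune markers, 13 stayed under 1 CPM in the 4 libraries, 4 of these had no read, and PTPRC reached 0.130 CPM at most. LYZ, which encodes lysozyme, was the only one with a mean of 2 CPM or more, at 29.3 and 30.4 CPM against 11.8 and 13.1 CPM. The fibroblast sums were 786 and 1073 CPM against 822 and 1017 CPM and the epithelial sums 345 and 351 CPM against 333 and 389 CPM, so neither separated the pairs.

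LOXL4 was another of the 15 leading genes, and FST and IL24 were named through their lists. FST encodes follistatin, which binds and blocks activins, and stood at 1434 and 936 CPM in replicates 1 and 4 against 155 and 314 CPM in 2 and 3. IL24, a cytokine of the interleukin 10 family, stood at 1418 and 770 CPM against 220 and 206 CPM. LOXL4, a lysyl oxidase that crosslinks collagen and elastin, stood at 1761 and 1849 CPM against 232 and 350 CPM. FST had controls of 611 and 601 CPM, IL24 of 346 and 233 CPM and LOXL4 of 1694 and 1952 CPM. LOXL4 thus lay within 0.08 (log2) of the matched control in replicates 1 and 4 and 2.87 and 2.48 below it in replicates 2 and 3. The pairs of these genes did not overlap.

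Other leading genes on this side, by the size of the smaller difference, were FAM180A, FGFBP1, SEMA5A, TRAF1, FGFBP2, IL37, NTM, TAFA2, NANOS1, PRSS23 and P3H2. FAM180A had the largest smaller difference of the named genes, at 11.6 and 11.9 CPM in replicates 1 and 4 and 0.203 and 0.741 CPM in 2 and 3, with controls at 0.279 and 0.389 CPM. FGFBP1 and FGFBP2 encode carriers of fibroblast growth factors, SEMA5A a guidance cue for axons, and TRAF1 an adaptor of TNF receptors. TRAF1 stood at 203 and 92.1 CPM against 12.3 and 13 CPM, with controls at 99.4 and 68.3 CPM. Each control lay between the 2 knockdown libraries of its own part, but control 1 was above replicate 4.

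**Figure D2:**
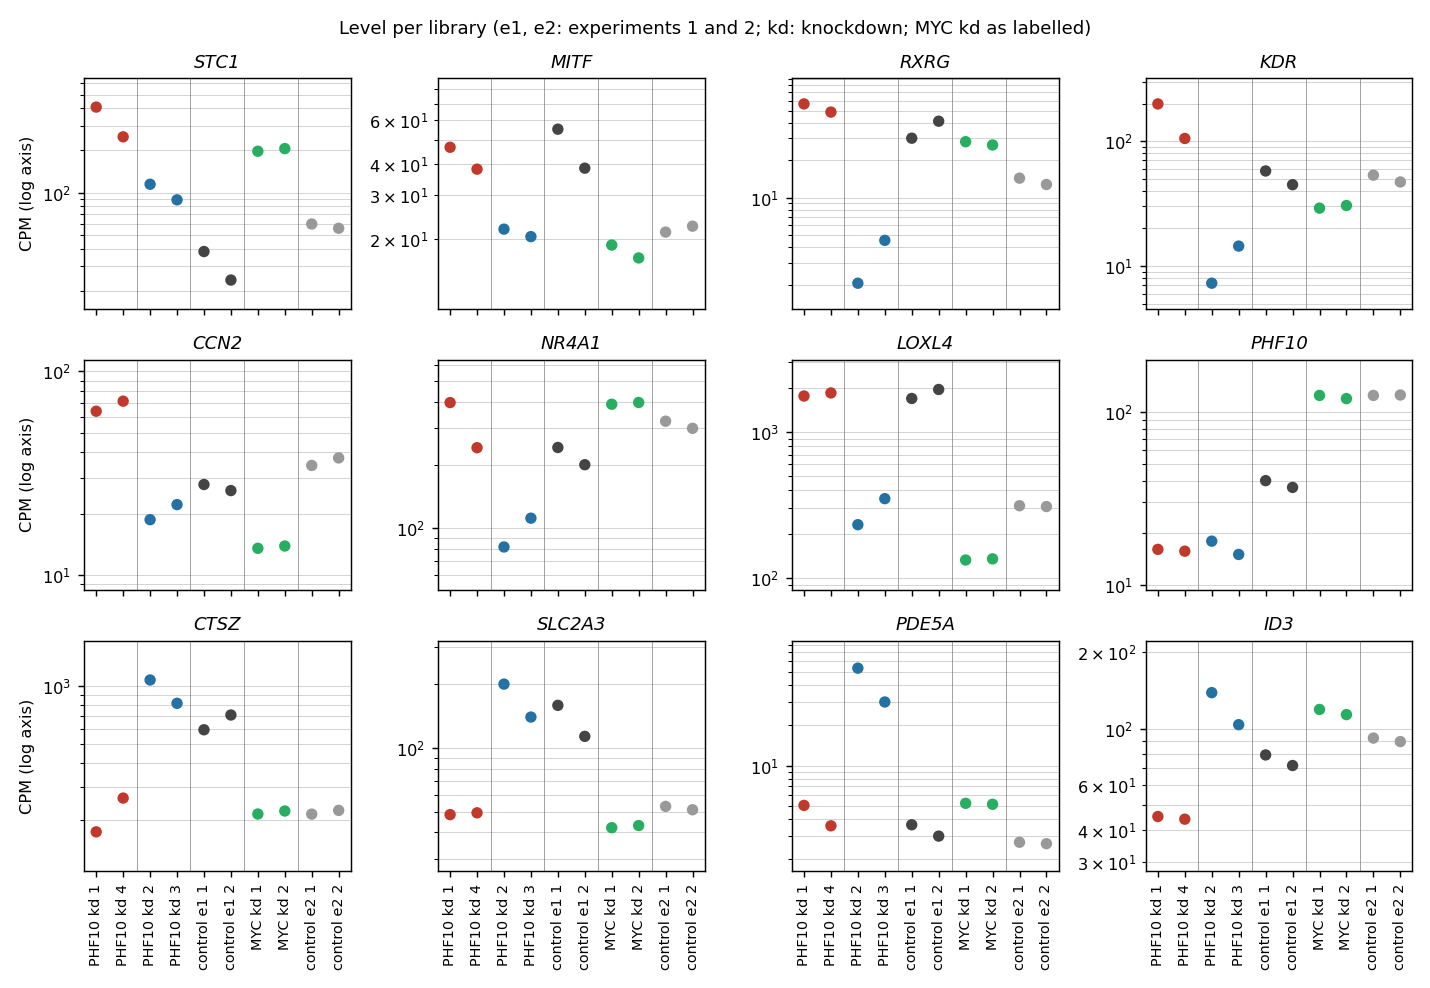
CPM of 12 genes in each of the 10 libraries, on log axes, with PHF10 knockdown replicates 1 and 4 in red, 2 and 3 in blue, controls in greys and the libraries labelled MYC knockdown in green. STC1, MITF, RXRG, KDR, CCN2, NR4A1 and LOXL4 are high in the red pair, CTSZ, SLC2A3, PDE5A and ID3 in the blue pair, and PHF10 is alike in both.

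On the side of replicates 2 and 3, the phosphodiesterase PDE5A, which breaks down cyclic GMP, stood at 53.3 and 29.8 CPM, against 5.05 and 3.56 CPM in replicates 1 and 4 and 3.62 and 2.98 CPM in the controls. ABTB3 stood at 23.6 and 20.3 CPM against 1.57 and 1.95 CPM, with both controls at 1.25 CPM. ST8SIA4, which adds polysialic acid to proteins such as NCAM1, stood at 143 and 85.4 CPM against 19.9 and 20.2 CPM, with controls at 19.1 and 15.6 CPM. In these genes replicates 1 and 4 were near the controls and replicates 2 and 3 above them, with no overlap.

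Matrix genes were among the leading ones as well. MMP1, a collagenase, stood at 17.4 and 10.2 CPM in replicates 2 and 3 against 2.24 and 2.78 CPM in 1 and 4. VCAN, the proteoglycan versican, stood at 16.9 and 17.5 CPM against 4.78 and 4.69 CPM. COL1A1, a chain of type I collagen, stood at 13.5 and 4.93 CPM against 3.00 and 1.26 CPM, and here replicate 3 differed from replicate 1 by less than from replicate 2. MMP13, another collagenase, followed the interferon parts too, with 25.1 and 6.35 CPM in replicates 2 and 1 and 2.04 and 0.521 CPM in replicates 3 and 4. SAMD11, VIT, DMBT1, SNAP25, NPTX2, CA9, TMEM38A and DRD2 complete the 15 leading genes of this side. The matrix and mesenchymal list as a whole was split, with 4 of its 49 members counted higher in replicates 1 and 4 and 3 counted higher in 2 and 3, and a median difference of -0.17 (log2) beside -0.01 over all genes.

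CTSZ, the lysosomal protease cathepsin Z, stood at 1079 and 815 CPM in replicates 2 and 3 and at 175 and 262 CPM in 1 and 4. The controls of experiment 1 held 594 and 709 CPM, so replicates 1 and 4 were below them by 1.77 and 1.44 (log2). ID3, an inhibitor of helix-loop-helix factors and a target of BMP signals, stood at 139 and 104 CPM against 45.2 and 44.1 CPM, with controls at 79.0 and 71.8 CPM in between. ID2 had the same order, at 13.5 and 8.82 CPM against 3.22 and 2.95 CPM.

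Gene lists were described by their counted members and their median difference, beside the median of -0.01 over all genes. Of the 13327 genes, 2.37% were counted higher in replicates 1 and 4 and 1.24% in 2 and 3. At any size, 40.3% had the same sign toward replicates 1 and 4 and 41.5% toward 2 and 3, and the list counts are to be read beside these shares. Targets of YAP and TEAD, the transcriptional arm of the Hippo pathway, were shifted toward replicates 1 and 4 in both parts. Of 22 members at 2 CPM or more, 5 were counted higher in replicates 1 and 4 and none in 2 and 3. The same sign was toward replicates 1 and 4 in 17 members and toward 2 and 3 in 3. The list's median was 0.71 in the high part and 0.57 in the low part. CCN2, a matricellular protein and standard YAP target, stood at 63.7 and 71.4 CPM in replicates 1 and 4, 18.7 and 22.2 CPM in 2 and 3, and 27.8 and 26.0 CPM in the controls. CCN1, its relative, stood at 124 and 122 CPM against 39.0 and 44.2 CPM, with controls at 69.5 and 68.7 CPM. IGFBP3, which binds insulin-like growth factors, stood at 349 and 383 CPM against 112 and 141 CPM. ANKRD1, another standard target, had differences of opposite sign (-0.54 and 0.61), and THBS1 differed by -0.30 and -0.05.

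The letters GGAATG, the core of the TEAD motif, and TGANTCA, the AP-1 motif, were searched on both strands in the 250 bases upstream of the RefSeq start (GRCh38.p14) for the 10299 genes of the 13327 with an entry. GGAATG was in 9.38% of all promoters, in 38 of 237 (16%) of the genes higher in replicates 1 and 4 and in 11 of 121 (9.09%) of those higher in 2 and 3. TGANTCA was in 3.81% of all, in 20 of 237 (8.44%) and in 7 of 121 (5.79%). The GC box GGGCGG was in 67.3% of all, 50.2% and 64.5%, and the E-box CACGTG in 8.89%, 5.49% and 10.7%. None of these letters contains another of the motifs. The upstream sequences of CCN2, EPHA2 and FAM180A are shown because CCN2 carries 3 matches to GGAATG, EPHA2 is a member of the ERK list counted on the same side, and FAM180A had the largest pair difference among named genes. They run 5′ to 3′ along the gene and stop before any annotated exon. Capitals mark GGAATG in CCN2, its reverse complement in EPHA2 and TGANTCA in FAM180A. CCN2 is at chr6:131951374-131951622 (minus strand), EPHA2 at chr1:16156088-16156319 (minus strand) and FAM180A at chr7:135748847-135749063 (minus strand).
CCN2: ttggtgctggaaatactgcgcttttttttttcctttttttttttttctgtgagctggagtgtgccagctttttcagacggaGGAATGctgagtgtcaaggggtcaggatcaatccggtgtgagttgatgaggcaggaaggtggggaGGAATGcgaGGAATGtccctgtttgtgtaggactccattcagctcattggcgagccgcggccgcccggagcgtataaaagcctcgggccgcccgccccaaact
EPHA2: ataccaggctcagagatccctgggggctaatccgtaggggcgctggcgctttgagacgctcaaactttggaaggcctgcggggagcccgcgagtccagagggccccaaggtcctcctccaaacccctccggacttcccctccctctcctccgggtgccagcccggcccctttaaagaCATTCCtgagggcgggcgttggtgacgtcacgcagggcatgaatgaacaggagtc
FAM180A: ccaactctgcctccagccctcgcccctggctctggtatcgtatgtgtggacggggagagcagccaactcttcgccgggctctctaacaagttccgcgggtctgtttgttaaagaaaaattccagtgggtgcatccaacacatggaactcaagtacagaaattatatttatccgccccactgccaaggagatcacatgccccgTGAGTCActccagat

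The match in FAM180A begins 48 bases before the start, that in EPHA2 73 bases and those in CCN2 169, 104 and 95 bases. Matches are descriptions of the letters in these windows, and no binding was measured in this series.

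Immediate early and AP-1 genes, which respond within minutes to growth factors and stress, had a median of 0.65 in the high part and 0.41 in the low part. Of 27 members, 20 had the same sign toward replicates 1 and 4 and 3 the opposite, and 2 were counted. These were CCN1, which is also in the YAP list, and NR4A1, an orphan nuclear receptor, at 396 and 242 CPM against 81.4 and 112 CPM with controls at 242 and 200 CPM. FOSL1, a Fos relative and AP-1 subunit, stood at 220 and 150 CPM against 78.4 and 85.2 CPM. JUN differed by 0.75 and 0.76, while FOS differed by 0.50 and -0.21.

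Output genes of the ERK pathway, which the BRAF mutation drives in A375, were split, with 3 of 24 members counted higher in replicates 1 and 4 and 1 in the other direction and a median of 0.09. DUSP5, a phosphatase of nuclear ERK, stood at 220 and 101 CPM in replicates 1 and 4 against 30.6 and 25.9 CPM in 2 and 3, with controls at 34.5 and 21.5 CPM. EPHA2, a receptor for ephrins, stood at 767 and 576 CPM against 269 and 257 CPM, with controls at 321 and 228 CPM. DUSP7 stood at 31.3 and 30.8 CPM against 11.6 and 13.3 CPM, with controls at 34.2 and 34.0 CPM. In DUSP5 and EPHA2 the replicates 1 and 4 were above the controls and in DUSP7 the replicates 2 and 3 were below them.

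Hypoxia and glycolysis genes leaned the other way. Of 36 members, 3 were counted higher in replicates 2 and 3 and none in 1 and 4. The same sign was toward replicates 2 and 3 in 23 members and toward 1 and 4 in 9, with a median of -0.22. SLC2A3, the glucose transporter GLUT3, stood at 200 and 140 CPM in replicates 2 and 3 against 48.5 and 49.5 CPM in 1 and 4, with controls at 159 and 113 CPM. CA9, a carbonic anhydrase of hypoxic cells, stood at 14.7 and 2.48 CPM against 2.91 and 0.521 CPM, so that replicate 3 lay below replicate 1 and only the comparison within a part separated the pairs. ANGPTL4 stood at 19.6 and 7.75 CPM against 4.83 and 3.73 CPM. HK2, a hexokinase, went against the list with differences of 0.74 and 0.59, and LDHA was near 0 (-0.15 and -0.02).

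Neural crest and neuronal genes had a median of -0.39, with 10 of 15 members lower in replicates 1 and 4 in both parts, 3 higher and none counted. L1CAM, a neural adhesion molecule, stood at 229 and 184 CPM in replicates 2 and 3 against 102 and 111 CPM, with controls at 153 and 141 CPM. SOX5 was on the other side, at 303 and 306 CPM in replicates 1 and 4 against 186 and 188 CPM. Of 19 melanocyte lineage and pigment genes, RXRG alone was counted higher in replicates 1 and 4 and 1 member was counted in the other direction, with a median of 0.16. Wnt and NOTCH output genes had a median of -0.37 over 14 members, and 10 of these had the same sign toward replicates 2 and 3 and 4 toward 1 and 4. On each side 1 member was counted. NKD1, an inhibitor of Wnt signalling, stood at 9.08 and 5.19 CPM in replicates 2 and 3 against 2.15 and 2.21 CPM in 1 and 4. DKK1, a secreted Wnt antagonist, ran against the list at 171 and 99.2 CPM in replicates 1 and 4 against 63.5 and 43.6 CPM.

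Type I interferon genes were not free of the pairs although the interferon part was held fixed. Of 45 members, 34 were higher in replicates 1 and 4 in both parts and 3 lower. The median difference was 0.32 in the high part and 1.14 in the low part, the widest gap between the parts among the lists plotted. OAS2, an antiviral sensor of double-stranded RNA, stood at 638 and 220 CPM in replicates 1 and 2 and at 79.9 and 14.4 CPM in replicates 4 and 3, and it alone was counted. HLA and antigen presentation genes had a median of 0.28, with 17 of 22 in the direction of replicates 1 and 4 and 2 in the other. HLA-B stood at 2181 and 922 CPM in replicates 1 and 2 and at 728 and 388 CPM in replicates 4 and 3. The HLA genes are close copies of each other and their counts are uncertain to that extent.

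**Figure D3:**
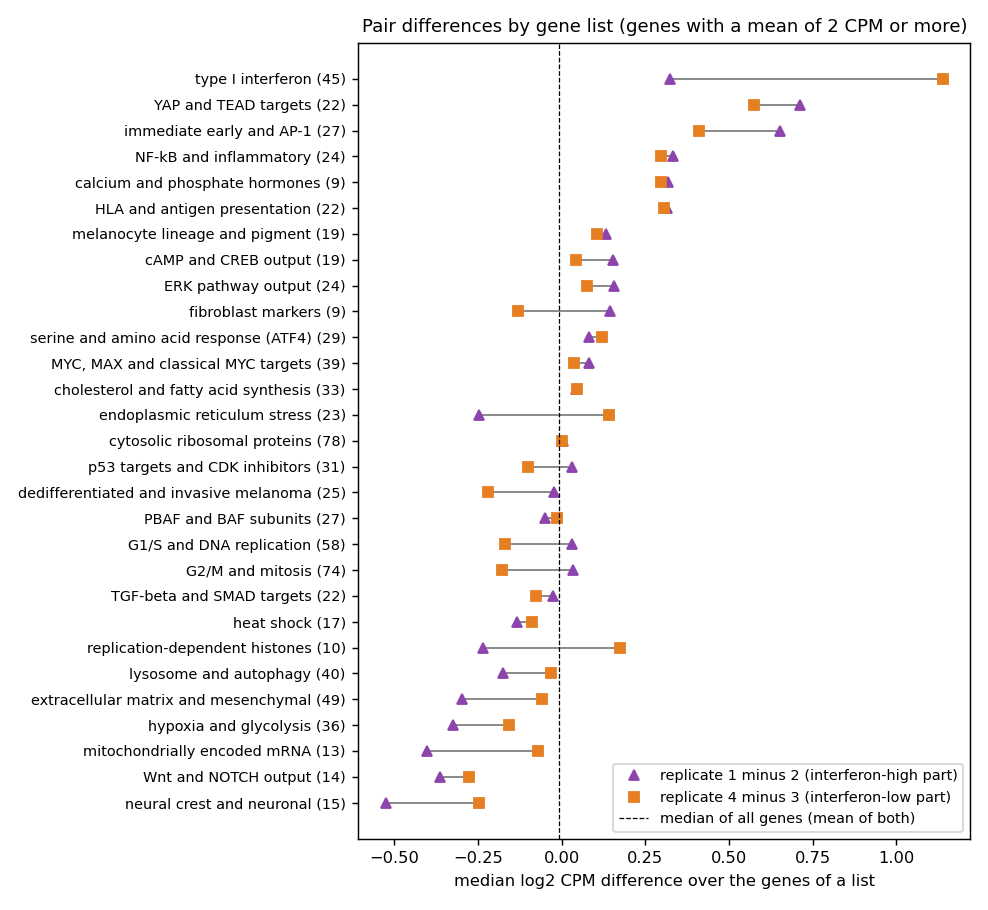
Median log2 CPM difference over the members of each list with at least 8 measured genes, for replicate 1 minus 2 (triangles) and replicate 4 minus 3 (squares), with the number of members in brackets and the median of all genes as a dashed line. YAP and TEAD targets lie at 0.71 and 0.57, type I interferon genes at 0.32 and 1.14, and ribosomal protein genes near 0 in both.

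Several lists had no counted member, beside 3.61% counted over all genes, so that a count of 0 is little different from the background in the shorter ones. None of 58 G1/S and DNA replication genes, 74 G2/M genes, 78 cytosolic ribosomal protein genes, 31 p53 targets and CDK inhibitors, 39 MYC network genes and 27 PBAF and BAF subunits was counted. Their medians were -0.09, -0.10, 0.01, -0.01, 0.06 and -0.05. Of the G1/S genes 26 had the same sign toward replicates 2 and 3 and 10 toward 1 and 4, and of the G2/M genes 35 and 18. The medians of both lists were 0.03 in the high part and -0.17 and -0.18 in the low part. Mitochondrially encoded mRNAs had a median of -0.26, with 10 of 13 lower in replicates 1 and 4 in both parts and none counted. The summed mitochondrial mRNA was 38114 and 62468 CPM in replicates 1 and 4 and 50508 and 63955 CPM in 2 and 3. Its part in the other pair differences was not tested.

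Gene properties differed a little between the sides. The median GC content of the longest annotated transcript was 46.5% in the genes higher in replicates 1 and 4, 50.1% in those higher in 2 and 3, and 47.9% in all. The median length of all exons of a gene together was 5638, 4648 and 5066 bases. Over 13273 genes the mean pair difference had a Spearman correlation of -0.20 with GC content and of 0.10 with exon length. Over all 13327 genes it had a Pearson correlation of 0.17 with the difference between the 2 controls. These are descriptions across genes, and the part of GC content or length in the pair difference was not tested.

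The counted genes were set against the controls of experiment 1 by asking which pair left them. Over the 316 genes the mean log2 CPM was 4.86 and 4.38 in replicates 1 and 4, 2.90 and 2.86 in replicates 2 and 3, and 3.87 and 3.38 in controls 1 and 2. Over the 165 genes it was 2.68 and 2.56, 4.39 and 3.98, and 3.21 and 2.97. In both sets the controls lay between the pairs. Of the 316 genes, 64 (20.3%) were at least 2-fold above the matched controls in replicates 1 and 4 while 2 and 3 were within 2-fold of them, and 77 (24.4%) were at least 2-fold below in 2 and 3 while 1 and 4 were within 2-fold. Of the 165 genes, 42 (25.5%) were above in replicates 2 and 3 and 35 (21.2%) below in 1 and 4 under the same rule. In 13 of the 316 and 10 of the 165 both pairs were at least 2-fold above the matched controls. Most of the remaining genes, 158 (50%) of the 316 and 77 (46.7%) of the 165, met none of these rules. The shares of all 13327 genes that meet them were not counted. Neither pair was the one that held the control level, and both pairs share the same 2 controls. In experiment 2 the 316 genes had means of 3.28 and 3.28 under the MYC knockdown label and 3.51 and 3.5 in the controls, and the 165 genes 3.42 and 3.54 against 3.25 and 3.27.

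**Figure D4:**
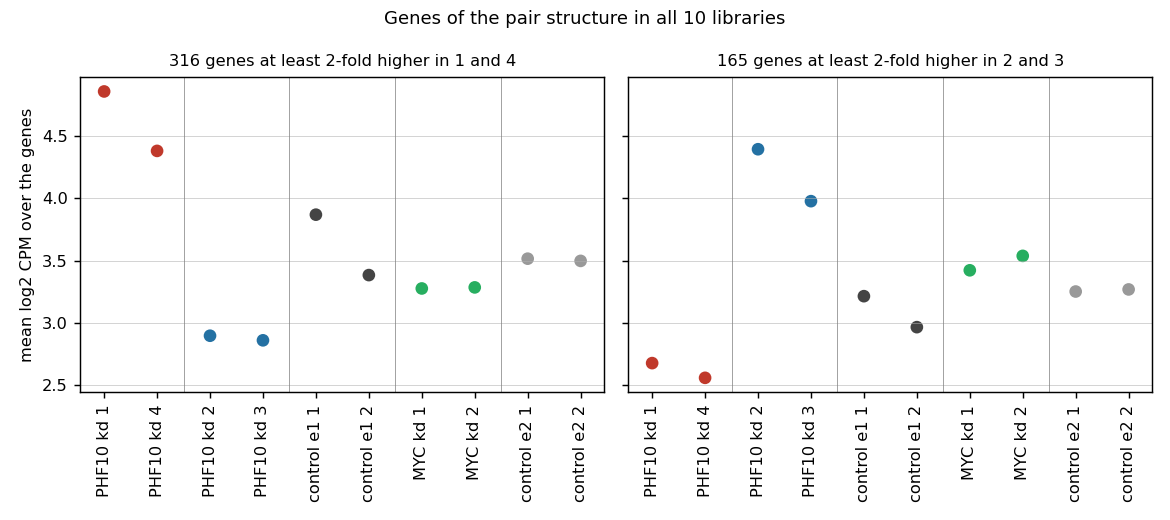
Mean log2 CPM over the 316 genes (left) and the 165 genes (right) in each of the 10 libraries. The controls of experiment 1 lie between the red pair (replicates 1 and 4) and the blue pair (replicates 2 and 3) in both panels.

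**Figure D5:**
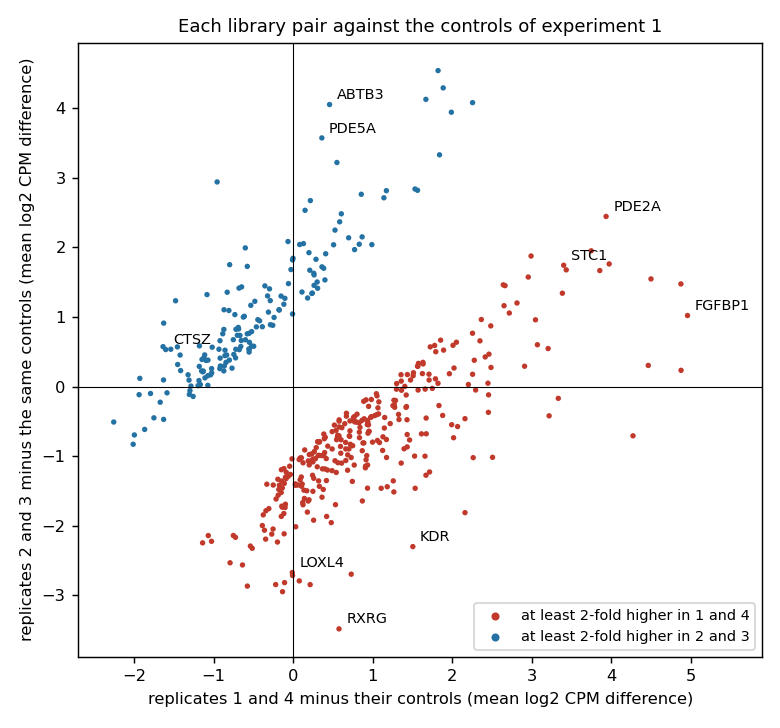
Each point is one of the 481 counted genes: the x axis is the mean log2 difference of replicates 1 and 4 from their matched controls, and the y axis that of replicates 2 and 3 from the same controls. Red genes spread below the diagonal and blue genes above it, with RXRG and LOXL4 low in replicates 2 and 3 alone and PDE5A and ABTB3 high in them alone.

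The comparison of PHF10 knockdown with its controls asks what the knockdown changed, and it uses the sum of the 4 libraries where the pairs use their difference. In this fit 508 of 18450 genes rose (2.75%) and 661 fell (3.58%). Of the 316 genes 5 rose and 3 fell (2.53% in either direction), and of the 165 genes 6 rose and none fell (3.64%), beside 6.34% over all genes tested and 7.89% over those with a mean of at least 2 CPM. These genes were selected for large differences among the 4 knockdown libraries, which are part of the spread in this test, so the low shares follow from the selection and say nothing about the knockdown. At an unadjusted p under 0.05, 40 rose and 7 fell among the 316 genes, and 35 rose and 6 fell among the 165. Over all 13327 genes with a mean of at least 2 CPM, 1584 rose and 1790 fell at that p. The selection bears on these counts as well. Besides STC1, PDE2A, a phosphodiesterase of cyclic AMP and GMP, was counted on the side of replicates 1 and 4 and rose by 3.48 ± 0.68 (log2, SE; edgeR adjusted p = 0.0181). It stood at 24.4 and 11.2 CPM in replicates 1 and 4, 6.69 and 5.11 CPM in 2 and 3, and 1.39 and 0.735 CPM in the controls, so both pairs lay above the controls. WNT9A, a Wnt ligand, was higher in replicates 2 and 3 but was not counted, with differences of -1.48 and -0.67 (log2). It stood at 3.89 and 10.5 CPM in replicates 1 and 4, 11 and 16.8 CPM in 2 and 3 and 1.63 and 2.29 CPM in the controls. Its rise was 2.43 ± 0.51 (log2, SE; edgeR adjusted p = 0.0233). With experiment 1 fitted alone the edgeR adjusted p was 0.0984 for PDE2A and 0.106 for WNT9A. Both calls were lost without control 1 (adjusted p of 0.0936 for PDE2A and 0.161 for WNT9A) and without control 2 (0.163 and 0.139), and over all genes leaving out control 1 left 78 rises and 136 falls, and leaving out control 2 left 68 and 151.

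Among lists, 45 of 58 G1/S genes and 30 of 76 G2/M genes fell and none rose in this comparison. Over all genes tested 3.58% fell and 2.75% rose. No member of either list was counted between the pairs, beside 3.61% over all genes with a mean of at least 2 CPM. With experiment 1 fitted alone 27 of all 17849 genes fell, so most of these list calls were lost in that fit. MYBL2, a transcription factor of dividing cells, stood at 23.8 and 38.2 CPM in replicates 1 and 4, 32.4 and 60.1 CPM in 2 and 3, and 106 and 112 CPM in the controls, and fell by 1.5 ± 0.27 (log2, SE; edgeR adjusted p = 0.0142). CHAF1B, a chromatin assembly factor of replicating cells, stood at 5.86, 6.99, 7.98 and 12 CPM in the same order, against 18.3 and 16.9 CPM, and fell by 1.10 ± 0.24 (adjusted p = 0.0264). Without control 1 or control 2 the adjusted p was 0.0753 and 0.101 for MYBL2 and 0.138 and 0.129 for CHAF1B, and without knockdown replicate 4 it was 0.0506 for CHAF1B. With experiment 1 fitted alone the edgeR adjusted p was 0.0931 for MYBL2 and 0.122 for CHAF1B. The 4 libraries were below both controls in these genes whichever pair they belonged to. Of the 1169 genes called in either direction, 1051 had a mean of at least 2 CPM. Among these 1051, 100 that rose and 38 that fell were at least 2-fold from the matched control in each of the 4 libraries.

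The spread that these tests work against includes the pairs. The biological coefficient of variation was 21.4% with all libraries, 26.7% in experiment 1 alone and 3.39% in experiment 2 alone. With the interferon part and the pair as terms, 3442 genes rose (18.7%) and 4149 fell (22.5%), and among the 316 genes 91 rose and 111 fell and among the 165 genes 58 and 44. Those terms were chosen from the same values, so the p-values of that fit are too small and are not used as calls. With experiment 1 fitted alone and no terms, 23 genes rose (0.129%) and 27 fell (0.151%), none of them among the 481.

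The libraries labelled MYC knockdown took no part in choosing the pairs. MYC itself stood at 16.7 and 13.3 CPM in them and at 15 and 26.5 CPM in their controls, so the groups overlapped and the label was not borne out by this mRNA. In the fit over all libraries 52 genes rose (0.282%) and 39 fell (0.211%), 91 in all (0.493%), against the controls of experiment 2, none of them among the 316 or the 165 genes, in a fit whose spread again includes the pairs. At an unadjusted p under 0.05, 6 of the 316 genes rose and 23 fell, and 6 of the 165 rose and 3 fell. Over all 13327 genes with a mean of at least 2 CPM, 915 rose and 944 fell at that p. DESeq2 called 2 and 10 of the 316 and 2 and 0 of the 165, beside 354 and 366 over all genes tested. With experiment 2 fitted alone 3827 of 17481 genes rose (21.9%) and 3954 fell (22.6%). In that fit 77 (24.9%) of 309 genes from the side of replicates 1 and 4 rose and 124 (40.1%) fell, and of 164 genes from the other side 66 (40.2%) rose and 30 (18.3%) fell. On the first side the share that fell was above the background, and the share that rose was slightly above it (24.9% beside 21.9%). On the second side the share that rose was above the background and the share that fell below it. These shares come from groups of 2 libraries each. The background includes genes with a mean under 2 CPM, and no share over genes of at least 2 CPM was computed for this fit. With any 1 of the 4 libraries of experiment 2 left out of the fit over all libraries, no gene was called. Single genes went both ways. CCN1 stood at 18.7 and 21 CPM under the MYC knockdown label, against control levels of 88.7 and 84.6 CPM, and VCAN at 128 and 167 CPM against 13.4 and 15.1 CPM. RXRG, STC1 and IGFBP3, all on the side of replicates 1 and 4, were higher in these libraries, with log2 differences of 1.01, 1.80 and 1.44 and adjusted p of 0.811, 0.249 and 0.270.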

How the data were processed

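Messenger RNA of 10 A375 libraries was used. The authors deposited raw read counts per Ensembl gene for each library. The submitters' processing notes name cutadapt, STAR and the build GRCh38.p13 (hg38), while versions and annotation were not given in the sources used here. Of the stranded columns, the opposite-strand one was taken because it held most gene reads. Genes were named from a table of gene names and GENCODE 29 (58516 of 60623 IDs).

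The members, the pairs and the gene lists were chosen with earlier results of these data known, and the interferon parts and pairs come from the values. Counts were scaled with TMM. The quasi-likelihood model of edgeR 4.0.16, under R 4.3.3, took all 10 libraries with 1 mean for each of the 4 groups (6 residual degrees of freedom), with filterByExpr and robust estimates, and p-values were adjusted by Benjamini-Hochberg at 0.05. log2 CPM used a prior count of 2. The scripts were tested on simulated data with known changes. DESeq2 1.42.0 was an alternative. Named genes were PHF10, STC1, MITF, the 15 on each side with the largest smaller difference and a mean of at least 5 CPM, and up to 3 per list by the same measure. Other genes named from the lists and at the 2-fold mark, such as ANKRD1, THBS1, JUN, FOS, HK2 and LDHA, were chosen after their values were seen. Depth was 20.5 to 38.4 M gene reads per library, and promoter letters came from RefSeq. Some genes that met these rules are not reported here.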

Additional observations from a re-analysis of the deposited data

How the results depend on the processing

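The counts of pair genes depended on the filter and the fold. For genes higher in replicates 1 and 4 the count of 316 became 850 without a filter on low values, 186 at a mean of 10 CPM, 931 at 1.5-fold and 89 at 3-fold, and it ran from 407 to 586 when each library was left out in turn, which leaves one difference. For genes higher in replicates 2 and 3 the count of 165 became 511, 77, 676 and 35 in the same order, and ran from 212 to 475. The edgeR fit with pair and interferon terms, by its fitted pair difference alone, gave 470 genes higher in replicates 1 and 4 and 297 higher in 2 and 3.
For PHF10 knockdown the counts of 508 and 661 became 1032 and 1133 with DESeq2, 1135 and 1237 without a filter, 23 and 27 with experiment 1 alone, 1073 and 1394 with the interferon term, and 3442 and 4149 with interferon and pair terms. Leaving out each library gave 68 to 650 and 136 to 737. For the libraries labelled MYC knockdown the counts of 52 and 39 became 354 and 366 with DESeq2, 453 and 458 without a filter, and 3827 and 3954 with experiment 2 alone, and 0 to 0 with a library left out. With a replicate block within the experiment the counts were 366 and 503 for PHF10 and 0 and 0 for MYC. Deviations of same-numbered libraries correlated at 0.14 and -0.03, and the numbers are not stated to pair samples. Among named genes 1015 pair differences stayed within the spread and 11 moved, 29 tests were weaker and 5 stronger, and none reversed. For pair differences the spread was the SD of a gene's own differences in the high and low parts. With a knockdown library left out, the value is one of those differences. It then stays within the spread by construction, and a counted gene cannot reverse. The tally of pair differences therefore says nothing about leaving libraries out. The cause of the changes listed here was not tested.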
